A study of Mus musculus with 16 samples.

Results

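The comparison was of olfactory mucosa cells that carried no GFP, sorted from S100a5-tauGFP mice exposed to 2-octanone or to vehicle. It rests on 8 of the 16 arrays of the series: the 4 GFP- arrays of the odor pools and the 4 GFP- arrays of the vehicle pools, chosen by their titles. On each array all 19572 of 28846 probe sets that name 1 gene were used. Each array held RNA of 3 mice sorted as 1 pool, and the 8 pools account for all 24 mice, which were 7 to 12 weeks old and of both sexes. Every pool, vehicle included, carried the reporter and spent 40 h in chambers of clean air flowing at 3.1 L/min. After 26 h the odor pools received 2-octanone, a linear methyl ketone, in pulses of 10 s every 20 min, and the vehicle pools received filtered air at the same rhythm. Dose, zygosity of the reporter and the sex of the mice in each pool were not given in the sources used here.

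Odorants bind odorant receptors, a large family of G protein-coupled receptors of which a mature olfactory sensory neuron expresses 1 allele of 1 gene. Receptor activation opens a cyclic nucleotide-gated channel through the G protein Gnal and the adenylyl cyclase Adcy3, and the resulting activity drives a set of genes in the neuron over hours, S100a5 among them. In the reporter strain GFP follows S100a5, so neurons that have been active turn GFP on and are sorted as GFP+. The question put to the GFP- cells is therefore which receptor RNAs are scarcer there after the odorant, and whether any other RNA differs. The GFP- fraction also holds every cell of the mucosa that is no neuron: sustentacular cells, glands, microvillar cells, basal cells and immune cells.

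The stretches of genome just upstream of the gene starts are shown for 4 genes that the results return to: the receptors Olfr902, Olfr122 and Olfr378, which read lower after 2-octanone, and the adhesion gene Pcdh10, which read higher. Of the 10 receptors with the smallest p among those lower, 9 had a window in the RefSeq table of build GRCm38.p6, and in 5 of these the gene model starts at the ATG itself, so that the window need not be a promoter. The 4 others start upstream, and 3 of them are printed. Each run is the 250 bases before the start, 5' to 3' on the gene's strand: chr9:38448542-38448791 (+ strand) for Olfr902, chr17:37768392-37768641 (+ strand) for Olfr122, chr11:73428478-73428727 (- strand) for Olfr378 and chr3:45378148-45378397 (+ strand) for Pcdh10. Capitals mark TAATTA, the core that homeodomain factors such as Lhx2 and Emx2 recognise.
Olfr902: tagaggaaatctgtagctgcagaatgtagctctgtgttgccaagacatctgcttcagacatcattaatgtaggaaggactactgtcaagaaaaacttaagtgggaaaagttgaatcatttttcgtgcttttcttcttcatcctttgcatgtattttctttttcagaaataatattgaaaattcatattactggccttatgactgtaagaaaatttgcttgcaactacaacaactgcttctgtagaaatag
Olfr122: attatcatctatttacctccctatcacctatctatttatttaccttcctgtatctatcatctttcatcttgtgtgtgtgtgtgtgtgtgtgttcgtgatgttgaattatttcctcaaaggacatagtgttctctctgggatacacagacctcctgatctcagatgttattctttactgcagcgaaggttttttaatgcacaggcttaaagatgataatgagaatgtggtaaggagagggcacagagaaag
Olfr378: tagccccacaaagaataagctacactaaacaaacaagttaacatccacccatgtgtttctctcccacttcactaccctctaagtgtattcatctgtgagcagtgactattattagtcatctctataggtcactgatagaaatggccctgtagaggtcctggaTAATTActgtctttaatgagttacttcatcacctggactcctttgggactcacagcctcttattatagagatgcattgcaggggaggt
Pcdh10: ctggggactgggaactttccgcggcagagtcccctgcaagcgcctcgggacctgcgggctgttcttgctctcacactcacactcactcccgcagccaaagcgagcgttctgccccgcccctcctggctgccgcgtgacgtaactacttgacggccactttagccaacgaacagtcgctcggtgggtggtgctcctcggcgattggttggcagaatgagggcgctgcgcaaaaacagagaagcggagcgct
Each window was searched on both strands for CCCNNGGG, a core of Olf/Ebf sites, for TAATTA and for TGACGTCA, the site of cyclic AMP response element binding factors. The printed windows hold 1 match in all, the TAATTA of Olfr378. Over the 9 windows of the leading lower receptors, 2 hold TAATTA (those of Olfr378 and Olfr123), 1 holds CCCNNGGG (that of Olfr398) and 0 hold TGACGTCA. Of 32851 windows of 250 bases in the table, 11.8% hold CCCNNGGG, 4.84% TAATTA and 1.55% TGACGTCA. Of the 944 receptor windows, 2.75% hold CCCNNGGG, 18.1% TAATTA and 0.106% TGACGTCA. A match is a description of the letters and not a site.

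The values were the deposited signals, read as log2, so that a difference of 1 is a factor of 2. Array medians lay between 7.92 and 8.01, background probe sets averaged 5.44 to 5.54, and arrays of one group correlated at 0.982 to 0.995 across genes. The first principal component held 46.5% of the variance and set vehicle replicate 4 (53.8) and octanone replicate 4 (40.9) apart, with octanone replicate 2 at 12.9 and the other 5 arrays between -29.1 and -17.0. The replicate 4 arrays read low in the mean of 1080 odorant receptors, at 8.87 with 2-octanone and 8.69 with vehicle against 9.27 to 9.71 on the others. They read high in the mean of 13 neutrophil genes, at 15.4 and 15.1 against 13.8 to 14.9. Omp, the marker of mature olfactory neurons, read 17.8 to 18.4 on all arrays. As a check of the sort, S100a5 was lower in the GFP- than in the GFP+ cells of the same pool in 8 of 8 pools, by 0.11 to 1.22. The gap was smallest in the replicate 4 pools, at 0.11 with vehicle and 0.38 with 2-octanone, against 0.87 to 1.22 in the other 6. S100a5 stayed high in the GFP- cells of those 6, at 15.4 to 15.8. The GFP+ cells of the replicate 4 pools read below that, at 13.2 with vehicle and 13.9 with 2-octanone. The leading results and most list medians are given with and without the replicate 4 arrays.

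No gene passed the test in GFP- cells. The limma fit over the 8 arrays (two-sided, Benjamini-Hochberg adjustment over all genes, called at an adjusted p under 0.05) called 0 of 19572, which is 0% of genes in either direction. The smallest adjusted p was 0.136, for the receptor gene Olfr123, and the next was 1.000. At an unadjusted p under 0.05 stood 467 genes (2.39%), 239 higher (1.22%) and 228 lower (1.16%) after 2-octanone. In simulated data of the same size for this comparison, the fit recovered 61 of 100 genes changed by 1 and 96 of 100 changed by 2. There the noise was independent between arrays and genes, and the 200 changed genes were drawn from all genes. The simulation thus held none of the differences that arrays share, and it gives no recovery rate for receptors, whose spread is larger. All 4 octanone arrays read above all 4 vehicle arrays for 219 genes (1.12%) and below them for 137 (0.7%).

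The largest differences were mostly receptors that read lower. Over 2-fold lower after 2-octanone were 15 genes (0.0766% of those measured), and 11 of the 15 were odorant receptors, although receptors are 1080 of the 19572. The 11 were Olfr398 (-2.14), Olfr796 (-1.96), Olfr1202 (-1.71), Olfr123 (-1.58), Olfr1126 (-1.40), Olfr1241 (-1.20), Olfr1000 (-1.20), Olfr1204 (-1.13), Olfr945 (-1.07), Olfr1206 (-1.05) and Olfr902 (-1.02). The other 4 were the secretory gland genes Bpifb9a and Bpifb9b, Fam183b and the chemokine gene Cxcl9. Over 2-fold higher were 3 genes (0.0153%): Pcdh10 at 1.99 and the receptors Olfr1179 and Olfr1220 at 1.38 each. Receptors also vary more from array to array within a group, with a median residual SD of 0.54 against 0.25 for all other genes. Without both replicate 4 arrays 11 genes were over 2-fold lower (0.0562%), 7 of them receptors, and 3 were over 2-fold higher (0.0153%), none of them a receptor. Of the 11 receptors, Olfr398, Olfr796, Olfr123, Olfr1126, Olfr1202 and Olfr945 stayed beyond that size without those arrays, at -2.54, -2.29, -1.76, -1.48, -1.15 and -1.05. Olfr902 then read -0.94, Olfr1204 -0.63, Olfr1000 -0.55, Olfr1241 -0.54 and Olfr1206 -0.34, and the higher receptors Olfr1179 and Olfr1220 0.73 and 0.59. Over all arrays Olfr945 overlapped between the groups, at 3.98 to 6.87 with 2-octanone and 5.11 to 7.36 with vehicle, partly below background.

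**Figure D1:**
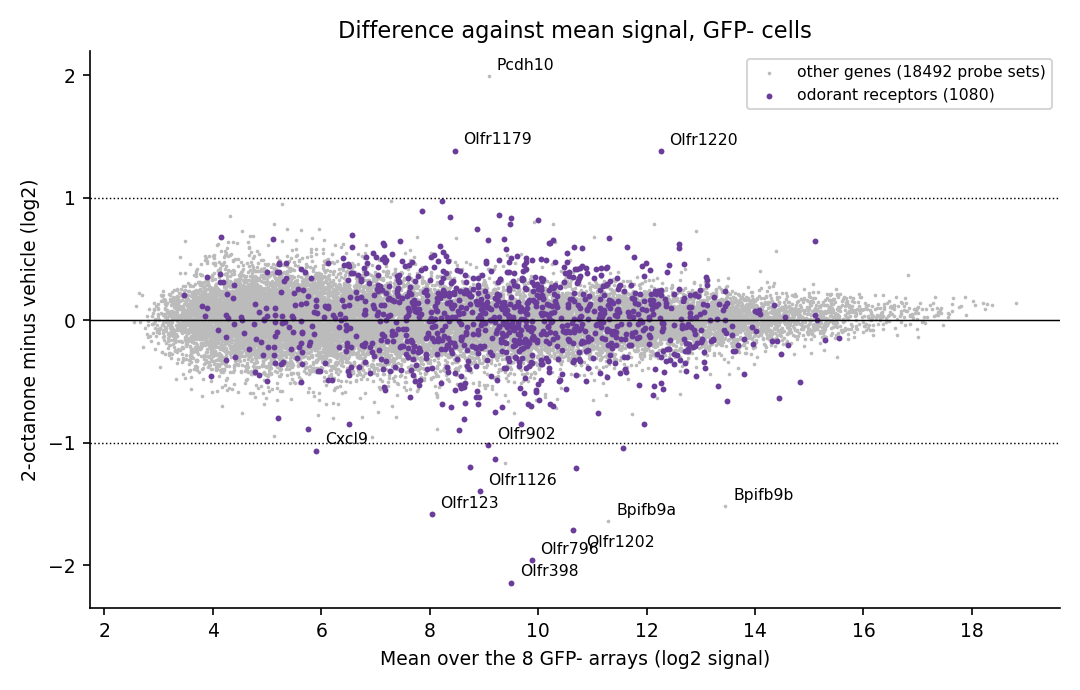
Difference between 2-octanone and vehicle in GFP- cells (log2, vertical) against the mean signal over the 8 arrays (log2, horizontal), 1 point per probe set, with odorant receptors in purple, all other genes in grey and dotted lines at a factor of 2. Most points below the lower line are receptors of middle signal, led by Olfr398 at -2.14, and Pcdh10 at 1.99 is the highest point.

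Olfr123, a class II receptor gene of the family MOR256, had the smallest p of all genes. It read 7.30, 7.12, 7.10 and 7.48 on the octanone arrays 1 to 4 and 9.33, 8.75, 8.71 and 8.54 on the vehicle arrays 1 to 4. The groups did not overlap, the gap between them was wider than the range of either, and both replicate 4 arrays lay with their own group. The difference was -1.58 (SE 0.19, 95% interval -2.0 to -1.17, n = 4 arrays a group; limma adjusted p = 0.136). Over 21 alternatives it lay between -1.76 and -1.42. With all 16 arrays of the series sharing one estimate of the spread it was called (limma adjusted p = 0.0289), as it was with array weights (0.0339) and without vehicle replicate 4 (0.0382). With the replicate number as a random block it was called too (limma adjusted p = 0.0405), but not with a fixed block (0.171). Over all alternatives the adjusted p ran from 0.0289 to 1.000. Since the sorted cells are measured in bulk, fewer neurons that express a receptor and less of its RNA in each neuron cannot be told apart, here and below.

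Olfr796 and Olfr398 had larger differences, with vehicle replicate 4 far below the other vehicle arrays. Olfr796 read 9.31, 8.79, 8.97 and 8.53 with 2-octanone and 11.16, 11.33, 11.43 and 9.51 with vehicle. Its groups did not overlap, but vehicle replicate 4 lay nearer to the octanone arrays than to its own group. Olfr398 read 8.78, 8.05, 9.08 and 7.83 with 2-octanone and 11.25, 11.10, 11.19 and 8.78 with vehicle. Here vehicle replicate 4 lay within the octanone range and the other 3 vehicle arrays more than 2 above it. The differences were -1.96 (SE 0.39) for Olfr796 and -2.14 (SE 0.53) for Olfr398, each with a limma adjusted p of 1.000. Without vehicle replicate 4 both were called, Olfr796 at -2.41 (limma adjusted p = 0.00519) and Olfr398 at -2.74 (0.0254). Without both replicate 4 arrays they were called as well, at -2.29 (0.00824) and -2.54 (0.0336), and Olfr123 then had an adjusted p of 0.0590. Receptor signals as a whole were low on vehicle replicate 4, as given above, and the part of that in these values was not tested.

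Olfr1126, Olfr902 and Olfr1202 also separated the groups on every array. Olfr1126, of the family MOR264, read 7.84, 7.62, 9.01 and 8.46 with 2-octanone and 9.51, 9.46, 9.94 and 9.60 with vehicle, a difference of -1.40 (SE 0.28). The vehicle arrays lay close together and the octanone arrays were spread. Olfr902, of the family MOR169, read 8.68, 8.75, 8.74 and 8.12 with 2-octanone and 9.64, 9.25, 10.11 and 9.38 with vehicle, a difference of -1.02 (SE 0.22). Olfr1202, of the family MOR232, read 10.47, 9.74, 10.27 and 8.68 with 2-octanone and 11.20, 11.05, 11.69 and 12.08 with vehicle, a difference of -1.71 (SE 0.38). Its lowest array was octanone replicate 4 and its highest vehicle replicate 4, and without both the difference was -1.15. None of the 3 was called (limma adjusted p = 1.000 each), and their lowest adjusted p over the alternatives was 0.205, 0.673 and 0.904.

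The other receptors among the 10 with the smallest p differed by less. Olfr750 read 9.57 to 10.42 with 2-octanone and 10.32 to 10.78 with vehicle, with a difference of -0.70 (SE 0.20) and a slight overlap. Olfr122, next to Olfr123 in gene order, read 9.40, 9.22, 9.44 and 9.73 with 2-octanone and 9.98, 9.92, 10.46 and 9.82 with vehicle. Its groups did not overlap, and the difference was -0.60 (SE 0.18). Olfr1316 differed by -0.63 (SE 0.19) and Olfr378 by -0.57 (SE 0.17), both with 1 octanone array inside the vehicle range.

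**Figure D2:**
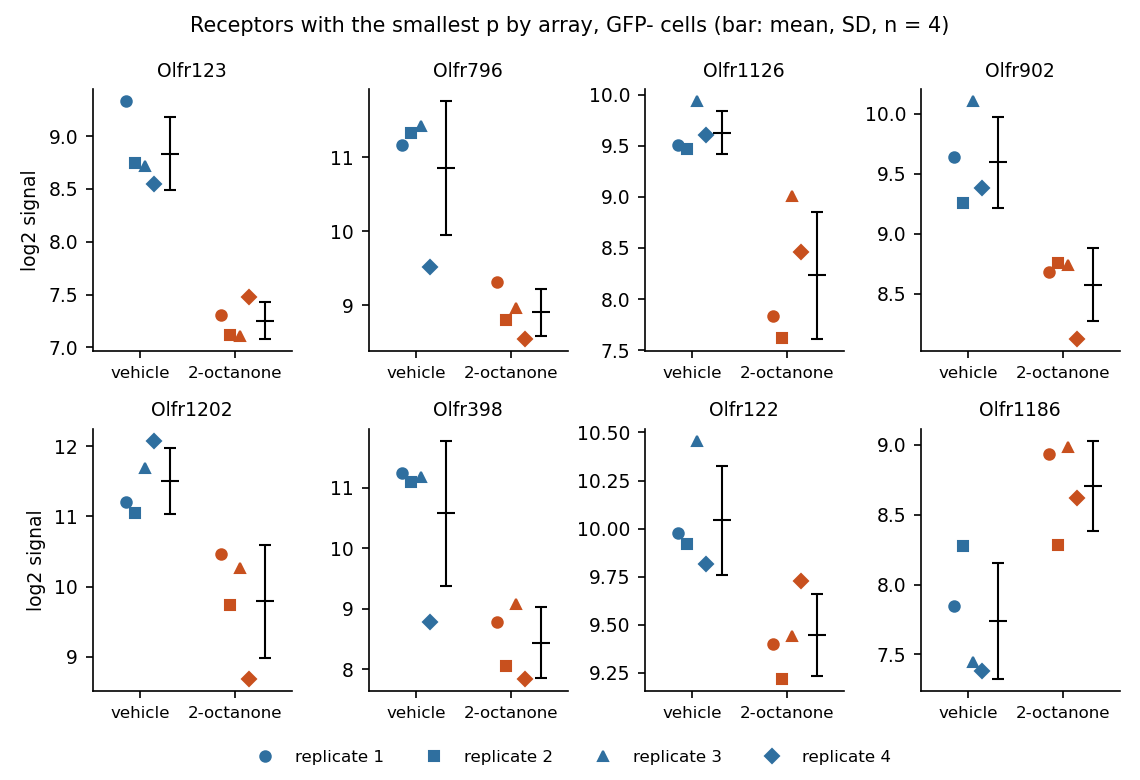
Signal (log2, vertical, with its own scale in each panel) of 8 receptors on the 4 vehicle arrays (blue) and the 4 octanone arrays (orange) of GFP- cells, with the replicate number as the symbol and mean and SD as bars (n = 4). Of the 7 receptors shown as lower, Olfr398 alone overlaps, through vehicle replicate 4 at 8.78; Olfr1186 read higher after 2-octanone.

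Receptors that read higher after 2-octanone had smaller differences. Olfr1186, of the family MOR230, read 8.94, 8.28, 8.98 and 8.62 with 2-octanone and 7.85, 8.28, 7.44 and 7.38 with vehicle. Octanone replicate 2 and vehicle replicate 2 were level to 2 decimals, and the difference was 0.97 (SE 0.23, limma adjusted p = 1.000). Olfr609, a class I receptor of the family MOR9, differed by 0.84 (SE 0.31), Olfr782 by 0.70 (SE 0.24), Olfr1453 by 0.66 (SE 0.25), Olfr1232 by 0.66 (SE 0.21) and Olfr1221 by 0.49 (SE 0.18). Olfr1453 read 4.72 to 4.84 with vehicle, below the background probe sets. Olfr1220 and Olfr1179 had the largest positive differences, and both rest on vehicle replicate 4. Olfr1220 read 12.52 to 13.30 with 2-octanone and 12.69, 12.73, 11.37 and 9.51 on the vehicle arrays 1 to 4. Olfr1179 read 8.77 to 9.58 with 2-octanone and 8.57, 8.72, 8.32 and 5.50 on the vehicle arrays 1 to 4.

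The receptors as a family were centred near 0. Their median difference was 0.02, against -0.00078 for all genes, and ran from -0.20 to 0.17 over the alternatives. Of the 1080, 565 were positive and 515 negative, and 1011 had a mean above the highest background of 5.54. At an unadjusted p under 0.05, 26 were lower (2.41%, against 1.16% of all genes) and 15 higher (1.39%, against 1.22%). Where nothing differs, such a p is reached by a share of 0.05, both directions together. All genes, at 2.39% in both directions, lay below that share, so they are a low yardstick for the receptors. In this fit the receptors, both directions together, lay below that share as well. The groups did not overlap for 8 lower receptors (0.741%, against 0.7%) and 4 higher (0.37%, against 1.12%). These counts moved with single arrays. Without vehicle replicate 4 there were 94 lower (8.7%, against 2.54% of all genes in the same fit) and 7 higher (0.648%, against 1.54%). Without octanone replicate 4 there were 21 lower (1.94%, against 1.37%) and 44 higher (4.07%, against 1.34%), and without both replicate 4 arrays 58 lower (5.37%, against 2.26% of all genes) and 31 higher (2.87%, against 1.62%). Without both, groups did not overlap for 64 lower receptors (5.93%, against 5.13%) and 31 higher (2.87%, against 4.54%). Without octanone replicate 3 there were 53 lower (4.91%, against 1.49%) and 9 higher (0.833%, against 1.22%). Without octanone replicate 1 there were 29 lower (2.69%, against 1.11%) and 7 higher (0.648%, against 1.25%) and without vehicle replicate 2 22 lower (2.04%, against 0.971%) and 23 higher (2.13%, against 0.94%).

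The receptors at an unadjusted p under 0.05 were spread over many families. By the MOR names in the RefSeq table, which order mouse receptors by sequence, 120 were of class I, the receptors shared with fish, and 941 of class II. Class I held 0 lower (0%) and 1 higher (Olfr609, 0.833%), with a median of 0.10 and 79 of 120 positive. Class II held 26 lower (2.76%) and 13 higher (1.38%), with a median of 0.01. The shares over all receptors were 2.41% lower and 1.39% higher, and over all genes 1.16% and 1.22%. The class medians are not given without the replicate 4 arrays. The 26 lower receptors fell into 20 of 222 families. Only 5 families held more than 1. MOR256 held 3 of 48, namely Olfr123, Olfr130 and Olfr132, which lie in 1 cluster of genes. MOR245 held 2 of 22 (Olfr1316 and Olfr1310), MOR135 2 of 17 (Olfr378 and Olfr393), MOR263 2 of 10 (Olfr122 and Olfr713) and MOR232 2 of 9 (Olfr1202 and Olfr1204). Among the 76 families with 5 or more measured members the median difference ran from -0.24 to 0.40.

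Receptor genes lie in clusters, and the neighbours of the leading receptors were read in the order of the RefSeq table. Around Olfr123, the 21 measured receptors within 10 steps had a median of -0.14, with 13 negative and 5 at an unadjusted p under 0.05 in that direction, a p reached there by 2.41% of all receptors. The cluster was chosen for Olfr123, which is 1 of the 5. The 5 were Olfr123, Olfr122 beside it, Olfr114 (-0.70, SE 0.25), Olfr130 (-0.57, SE 0.25) and Olfr132 (-0.54, SE 0.22). Olfr124, the neighbour on the other side and of the same family MOR256, read 0.35 (SE 0.42), and Olfr121 0.42 (SE 0.20). Around Olfr398 the 21 receptors had a median of -0.17, with 16 negative and 3 at that p: Olfr398, Olfr139 beside it (-0.63, SE 0.23) and Olfr393 (-0.66, SE 0.24). Olfr397, on its other side, read -0.24 (SE 0.30). Beside Olfr796, Olfr794 read -0.24 (SE 0.18) and Olfr798 -0.25 (SE 0.42). Beside Olfr1202, Olfr1201 read 0.28 (SE 0.19) and Olfr1205 -0.10 (SE 0.30). Beside Olfr1126, Olfr1124 read -0.10 (SE 0.21) and Olfr153 0.10 (SE 0.19), and beside Olfr902, Olfr901 read 0.39 (SE 0.44) and Olfr904 -0.23 (SE 0.29). Both clusters were chosen for their leading receptor, so its place as the lowest there is no separate result. Of the 21 receptors, 8 were positive around Olfr123 and 5 around Olfr398.

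**Figure D3:**
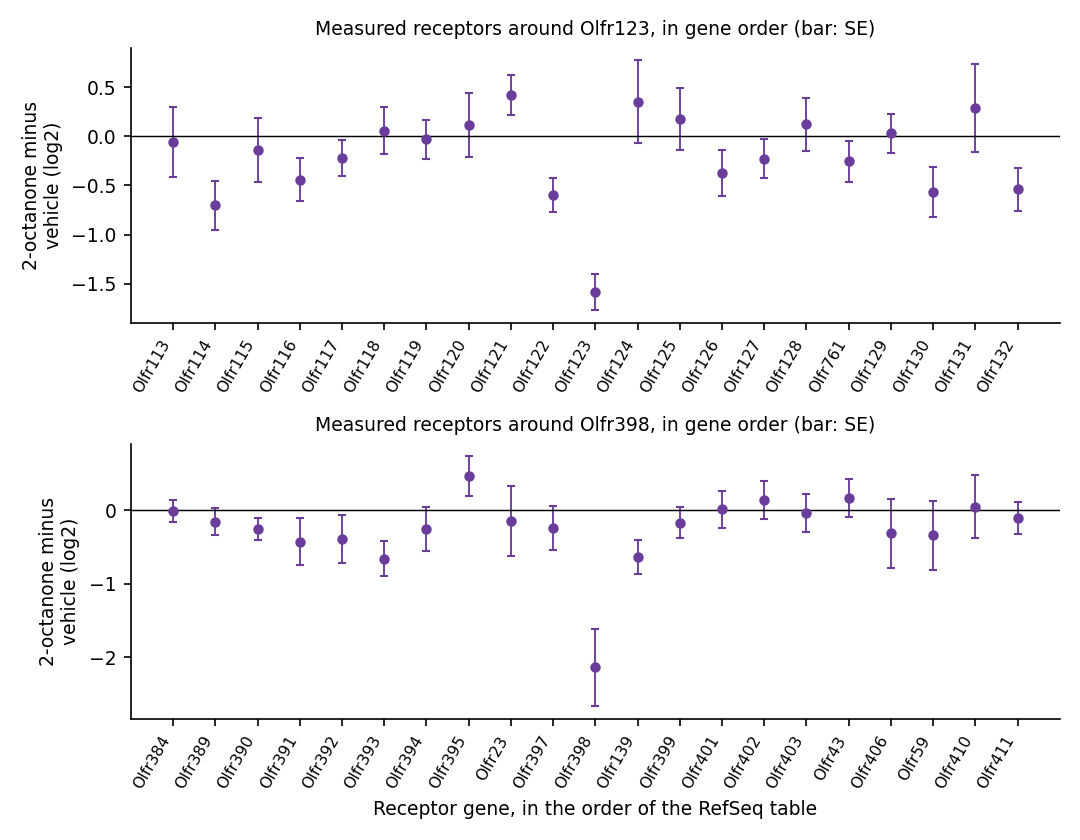
Difference between 2-octanone and vehicle in GFP- cells (log2, vertical, bars are SE, n = 4 arrays a group) of the measured receptor genes around Olfr123 (upper panel) and Olfr398 (lower panel), in gene order along the horizontal axis. The panels were chosen for Olfr123 at -1.58 and Olfr398 at -2.14, their lowest points. The lowest neighbours are Olfr114 at -0.70 and Olfr393 at -0.66.

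Among genes that follow neuronal activity, Pcdh10 stood out. Pcdh10, a protocadherin whose RNA in olfactory neurons depends on activity and which acts in axon sorting, read 11.13, 9.90, 9.98 and 9.32 with 2-octanone and 8.0, 8.67, 8.60 and 7.09 with vehicle. The groups did not overlap, and the difference was 1.99 (SE 0.42, 95% interval 1.05 to 2.93; limma adjusted p = 1.000). It lay between 1.61 and 2.25 over the alternatives and was 1.91 without both replicate 4 arrays. Of the 14 activity-dependent genes measured, 9 were positive, with a median of 0.23, 0 called and 1 at an unadjusted p under 0.05 (Pcdh10 itself); without both replicate 4 arrays the median was 0.14, again with 9 positive. Kirrel2, an adhesion molecule of glomerular sorting, read 12.70 to 14.04 with 2-octanone and 11.26 to 13.45 with vehicle (0.73, SE 0.45). Sema7a, a membrane-bound semaphorin, differed by 0.50 (SE 0.23), and Camk2n1, an inhibitor of calmodulin-dependent kinase, by 0.42 (SE 0.20). Both overlapped between the groups. The 5 negative members were Epha5 (-0.24), Nrn1 (-0.15), Efna5 (-0.15), Kirrel3 (-0.01) and Calb2 (-0.01). The list was not split by the direction in which activity moves each gene.

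S100a5, the calcium-binding protein gene behind the reporter, did not separate the groups. It read 15.77, 15.76, 15.68 and 13.55 with 2-octanone and 15.81, 15.45, 15.46 and 13.11 with vehicle. Both replicate 4 arrays lay more than 2 below their groups, and the difference of 0.23 (SE 0.65) became -0.39 without vehicle replicate 4 and 0.16 without both. Omp read 18.29 on average with 2-octanone and 18.19 with vehicle (0.09, SE 0.16), and -0.05 without vehicle replicate 4.

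**Figure D4:**
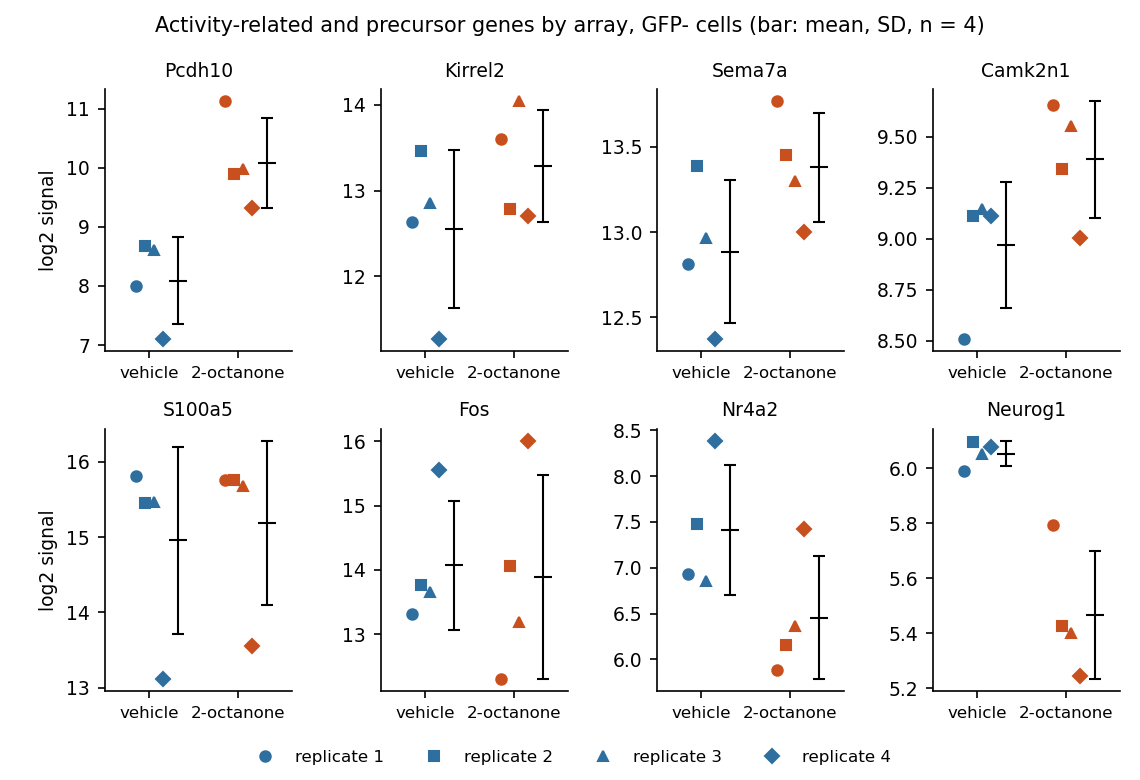
Signal (log2, vertical, with its own scale in each panel) of 8 genes linked to neuronal activity or to neuronal precursors on the 4 vehicle arrays (blue) and the 4 octanone arrays (orange) of GFP- cells, with mean and SD as bars (n = 4). Pcdh10 and Neurog1 do not overlap between groups, while S100a5 and Fos differ most between the replicate 4 arrays (S100a5 at 13.55 and 13.11) and the rest.

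Immediate early genes, which neurons and other cells transcribe within minutes of a stimulus or of dissociation, leaned lower with 0 called. Their list mean was 9.01, 9.48, 9.40 and 10.13 with 2-octanone and 9.49, 9.61, 9.40 and 10.14 with vehicle. The groups overlapped, and octanone replicate 1 was the lowest array. Of 22 measured, 17 were negative, with a median of -0.11 (range over alternatives -0.23 to 0.03) and 1 at an unadjusted p under 0.05. That was Nr4a2, an orphan nuclear receptor gene, at 5.88, 6.16, 6.37 and 7.42 with 2-octanone and 6.93, 7.48, 6.85 and 8.39 with vehicle (-0.96, SE 0.39). Within each group replicate 4 was the highest. Egr1 differed by -0.66 (SE 0.45), Arc by 0.31 (SE 0.17) and Fosl1 by 0.17 (SE 0.15). Fos averaged 13.89 ± 1.59 (SD, n = 4) with 2-octanone and 14.07 ± 1.01 with vehicle. The Fos difference, -0.18 (SE 0.74), was far within that spread and turned positive without octanone replicate 1 (0.35), octanone replicate 3 (0.05) or vehicle replicate 4 (0.32).

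Genes of mature neurons differed little between the exposures. Some lay near the highest value of all arrays, 18.99. Stoml3 averaged 18.88 with 2-octanone and 18.74 with vehicle, and Omp 18.29 and 18.19. Whether signals that high still follow RNA amounts was not tested. Of 21 genes of odorant transduction, from the G protein subunits to the channels, 14 were positive and 7 negative, with a median of 0.04, 0 at an unadjusted p under 0.05 and differences from -0.31 to 0.14. Grk3, a kinase that desensitises receptors, read -0.31 (SE 0.26), and Slc24a4, the exchanger that clears calcium after a response, -0.22 (SE 0.21). The 16 mature neuron genes had a median of 0.03, with Nsg1 at 0.14 (SE 0.14). Without both replicate 4 arrays these medians were -0.01 and -0.05. The 19 genes of receptor choice and its feedback had a median of 0.01, among them the methyltransferase gene Ehmt1 at -0.21 (SE 0.13) and the stress factor gene Ddit3 at 0.25 (SE 0.14). Of 22 genes of axon guidance and sorting, 10 were positive (median -0.01); beside Pcdh10 and Kirrel2, the netrin receptor gene Dcc read 0.21 (SE 0.14) at a signal below background. Of 17 genes of calcium and potassium handling, 8 were positive (median -0.04), with the kinase genes Camk4 at -0.36 (SE 0.17) and Camkk2 at -0.30 (SE 0.15). Camk4 averaged 5.47 with 2-octanone and 5.82 with vehicle, near background. The 14 trace amine-associated receptors, a small family that responds to amines, had a median of 0.05, with Taar7a at 0.33 (SE 0.42) and Taar8b at -0.27 (SE 0.25). Of the 4 dorsal zone genes 3 were positive (Acsm4 at 0.19, SE 0.15; Nqo1 at 0.14, SE 0.14), and of the 4 ventral zone genes 1 (Nfix at -0.41, SE 0.27). Without both replicate 4 arrays the medians were -0.08 for receptor choice, -0.07 for axon guidance, -0.11 for calcium and potassium handling and -0.03 for the trace amine-associated receptors.

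Genes of immature neurons and of their precursors mostly read lower after 2-octanone, with 0 called. Of 16 genes of immature sensory neurons, which extend axons, 15 were negative, and the median of -0.26 was the lowest of the 34 lists. Marcksl1, an actin-linked substrate of protein kinase C, read 7.55, 7.86, 7.66 and 7.36 with 2-octanone and 7.96, 8.13, 7.90 and 8.33 with vehicle. Its groups did not overlap (-0.47, SE 0.16), and it was the 1 member at an unadjusted p under 0.05. Nhlh1, a transcription factor of newly formed neurons, differed by -0.64 (SE 0.34), the axon growth gene Dpysl3 by -0.64 (SE 0.31) and Gng8, the G protein subunit of immature neurons, by -0.61 (SE 0.33). The list mean was 12.52, 12.53, 12.84 and 11.87 with 2-octanone and 12.58, 12.74, 12.78 and 12.82 with vehicle, so that octanone replicate 4 alone lay far below the rest. Without both replicate 4 arrays 10 of 16 were negative with a median of -0.09.

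Among 8 genes of globose basal cells and precursors, 2 were lower at an unadjusted p under 0.05 (1.16% of all genes) and both without overlap (0.7% of all genes). Neurog1, the proneural factor of immediate neuronal precursors, read 5.79, 5.43, 5.40 and 5.24 with 2-octanone and 5.99, 6.09, 6.05 and 6.08 with vehicle (-0.59, SE 0.14), close to the background of 5.44 to 5.54. It stayed at -0.51 without both replicate 4 arrays. Kit, a receptor kinase of precursors, read 9.30, 9.19, 9.04 and 9.28 with 2-octanone and 9.47, 9.87, 9.49 and 9.96 with vehicle (-0.50, SE 0.16). The list as a whole had a median of -0.11 with 6 negative, and 0.18 with 2 negative without both replicate 4 arrays. The 15 cell division genes likewise went from 13 negative (median -0.13) to 3 negative (median 0.10). Their mean was 10.68 on vehicle replicate 4 against 8.73 to 9.77 on the other 7 arrays. Plk1, a mitotic kinase gene, differed by -0.66 (SE 0.42).

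Markers of the supporting cells varied between pools more than between exposures. The 13 genes of Bowman's gland, which secretes the mucus, held the widest values: Bpifb9b read 10.51, 15.32, 11.18 and 13.76 with 2-octanone and 12.20, 15.31, 12.78 and 16.57 with vehicle (-1.52, SE 1.19). Replicates 2 and 4 were high in both exposures. Bpifb9a was likewise high on replicates 2 and 4 of both exposures (-1.64, SE 1.22), and Aqp5, the water channel of the gland, differed by -0.31 (SE 0.24). Of the 13, 10 were negative (median -0.14), and without both replicate 4 arrays 5 were (median 0.22). The 14 sustentacular genes had a median of -0.05, with Gsta4, a glutathione transferase, at 0.54 (SE 0.26) and list means of 10.2 to 11.4 with 2-octanone and 10.4 to 11.2 with vehicle. Of the 9 horizontal basal cell genes, with list means of 5.08 to 5.29 and 5.06 to 5.20, which is below background, Krt15 was at 0.35 (SE 0.14). Sox10, listed for both gland and ensheathing glia, read 0.38 (SE 0.15); the 8 glia genes had a median of 0.14. Krt15 and Sox10 were the members of these lists at an unadjusted p under 0.05. The 13 Trpm5 microvillar genes (median -0.11, 8 of 13 negative), of which Gnat3 at 0.28 (SE 0.23) and Il25 at 0.32 (SE 0.28) had the smallest p, and the 9 ionocyte-like genes (median -0.03), with the proton pump gene Atp6v1b1 at -0.41 (SE 0.28), held 0 at that p. So did the 9 respiratory ciliated genes (Dnah5 at 0.19, SE 0.13), the 9 endothelial genes (Pecam1 at -0.19, SE 0.17), the 9 fibroblast genes (median 0.01, 5 of 9 positive, with Lum the lowest at -0.33, SE 0.18) and the 7 genes of guanylyl cyclase D neurons (Ms4a6c at -0.23, SE 0.37). List means of the endothelial genes were 5.19 to 5.53 with 2-octanone and 5.26 to 5.54 with vehicle, about the level of background. Leaving out both replicate 4 arrays, the median was 0.08 for the Trpm5 microvillar genes, 0.02 for the sustentacular, -0.20 for the ionocyte-like, 0.13 for the fibroblast and 0.20 for the glia genes.

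**Figure D5:**
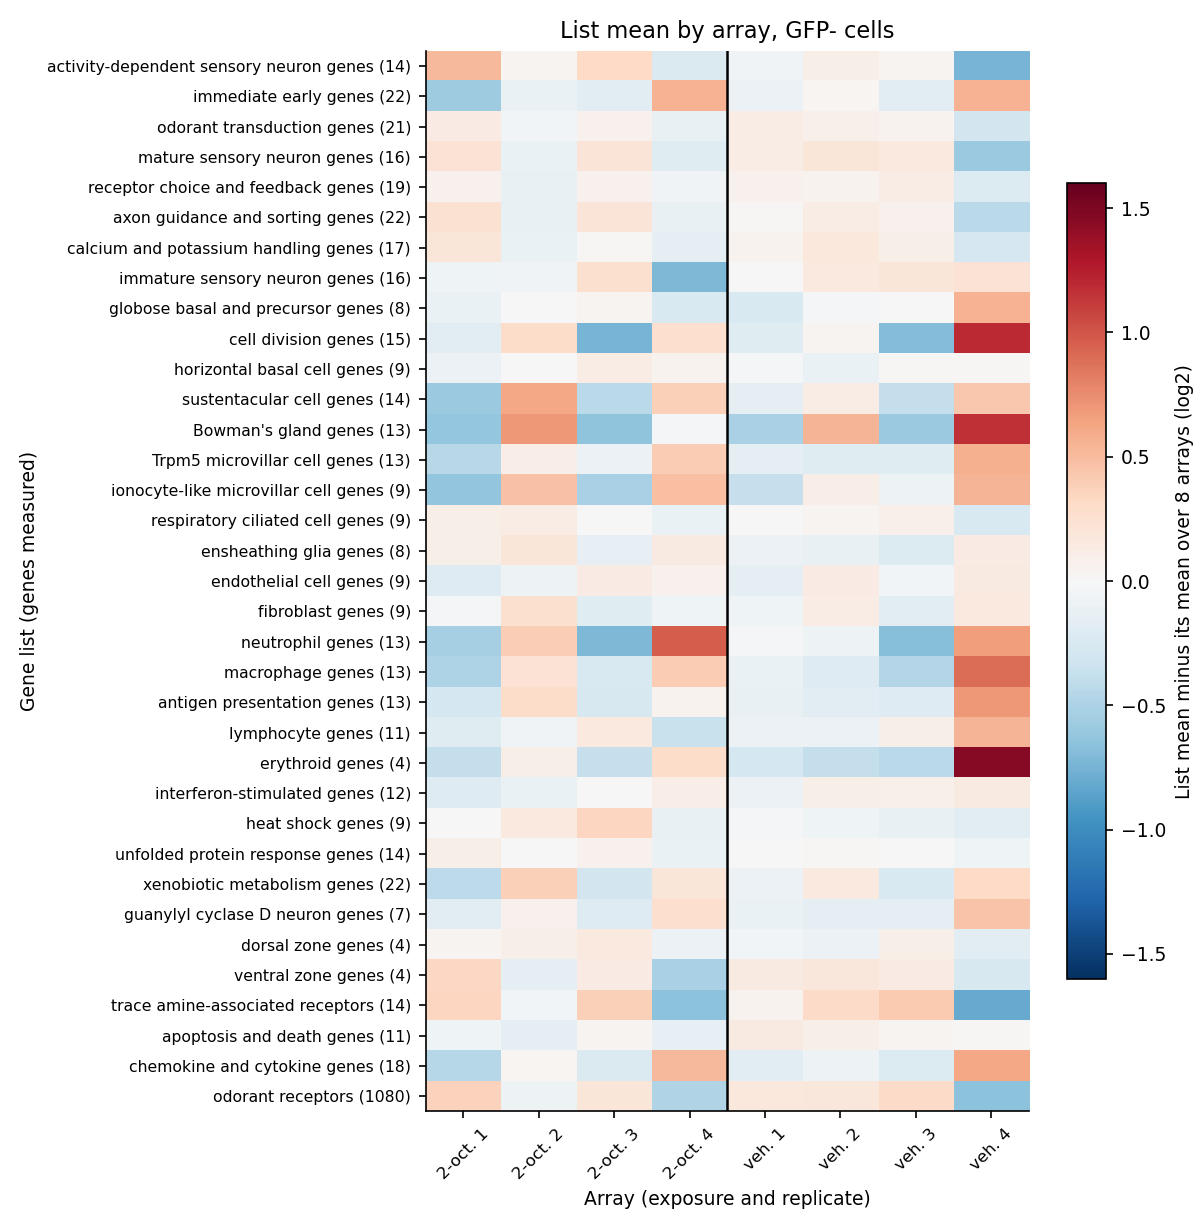
Mean signal of each gene list on the 4 octanone arrays (left of the line) and the 4 vehicle arrays (right) of GFP- cells, as the difference from that list's mean over the 8 arrays (log2, colour), with the number of genes measured in brackets. The replicate 4 columns, low in odorant receptors (8.87 and 8.69) and high in neutrophil genes (15.4 and 15.1), stand apart from the other columns in most lists.

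Immune cell genes overlapped between the exposures, with Gzmb and Cxcl9 as exceptions. The 13 neutrophil genes averaged 13.93, 14.86, 13.76 and 15.44 with 2-octanone and 14.45, 14.39, 13.79 and 15.14 with vehicle, with a median difference of 0.12 and Retnlg at 0.37 (SE 0.30). The 13 macrophage genes had a median of -0.05 (Cx3cr1 at -0.25, SE 0.24), the 13 antigen presentation genes of -0.07 (H2-DMa at -0.26, SE 0.20) and the 4 erythroid genes of -0.18 (Klf1 at -0.36, SE 0.31). Of 11 lymphocyte genes 8 were negative (median -0.19); Gzmb, the granzyme gene of cytotoxic cells, read 4.00 to 4.88 with 2-octanone and 4.93 to 5.17 with vehicle (-0.59, SE 0.18), all below background, and Pax5, a B cell factor, differed by -0.65 (SE 0.35). Cxcl9, a chemokine induced by interferon gamma, read 5.55, 5.65, 4.74 and 5.57 with 2-octanone and 6.27, 6.81, 6.31 and 6.38 with vehicle. The groups did not overlap (-1.06, SE 0.22, limma adjusted p = 1.000), and 2-octanone replicate 3 was the lowest, while the other octanone arrays lay close above the background of 5.44 to 5.54. The 18 chemokine and cytokine genes as a list had a median of 0.04. Cxcl1 differed by 0.18 (SE 0.15) and averaged 5.37 with 2-octanone and 5.19 with vehicle, below background. The 12 interferon-stimulated genes had a median of -0.07, with Rsad2 at -0.50 (SE 0.32), Oasl2 at -0.39 (SE 0.27) and Isg15 at -0.27 (SE 0.19). Leaving out both replicate 4 arrays, the medians were -0.003 for neutrophil, -0.005 for lymphocyte, 0.07 for antigen presentation, 0.12 for erythroid, 0.02 for macrophage, 0.02 for chemokine and cytokine and -0.003 for interferon-stimulated genes. Vehicle replicate 4 was the highest vehicle array in the erythroid mean (10.33) and the antigen presentation mean (10.98).

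Stress and detoxification genes held 0 members at an unadjusted p under 0.05. Of 9 heat shock genes 7 were positive (median 0.06): the inducible chaperone genes Hspa1b and Hspa1a read 0.79 (SE 0.41) and 0.63 (SE 0.41), both highest on octanone replicate 3 (11.79 and 11.85), and Hspb1 0.32 (SE 0.19). These 2 Hspa1 genes are near-identical copies, and their probe sets may not tell them apart. Hspb1 averaged 5.52 with 2-octanone and 5.20 with vehicle, about the level of background or below it. The 14 genes of the unfolded protein response had a median of 0.03, with Herpud1 at 0.13 (SE 0.12). Of 22 genes of xenobiotic metabolism, whose enzymes break down odorants in the mucosa, 16 were negative (median -0.07), with Gstp1 at -0.56 (SE 0.27). Of 11 apoptosis genes 8 were negative (median -0.11), with Casp9 at -0.39 (SE 0.22) and Bcl2 at -0.29 (SE 0.19). The medians of these lists were 0.07, 0.08, -0.04 and -0.18 without both replicate 4 arrays.

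Over the 34 lists, 399 of 441 genes were measured. A gene at an unadjusted p under 0.05 was held by 10 lists, and 2.39% of all genes reached such a p. Pcdh10 counts there for both activity-dependent and axon guidance genes, and Sox10 for both gland and glia genes. List medians ran from -0.26 (immature sensory neurons) to 0.23 (activity-dependent genes).

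Outside receptors and lists, the genes with the smallest p differed by less than a factor of 2 and did not overlap between groups. Rpa3, a subunit of the single-strand DNA binding complex RPA, read 11.19 to 11.60 with 2-octanone and 10.42 to 10.82 with vehicle (0.68, SE 0.15). Stpg3 differed by 0.75 (SE 0.19), Fhl4 by 0.55 (SE 0.13), Gm4559 by 0.51 (SE 0.13) and Ttr, the thyroid hormone carrier transthyretin, by 0.51 (SE 0.13), the last read at 5.26 to 6.05 on all arrays. Lower were Uprt, a uracil phosphoribosyltransferase gene, at 9.95 to 10.36 after 2-octanone against 10.62 to 10.78 with vehicle (-0.56, SE 0.13), Speer4a (-0.59, SE 0.13), the zinc finger gene Zfp879 (-0.59, SE 0.14) and the vomeronasal receptor gene Vmn2r45 (-0.59, SE 0.14). None was called (limma adjusted p = 1.000 each). Stpg3, Fhl4, Ttr, Speer4a and Vmn2r45 averaged 5.39 to 5.76 in the group where each was lower, near the background of 5.44 to 5.54.

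The largest spread among arrays lay in genes of the Y chromosome. Eif2s3y read 5.31 on octanone replicate 1 and 3.48 on vehicle replicate 1 against 11.05 to 12.26 on the other 6 arrays, Uty 3.38 and 3.99 against 10.21 to 11.26, and Kdm5d 3.47 and 3.12 against 7.53 to 8.26. The pools numbered 1 were thus low in Y-linked RNA in both exposures, with every value of these genes below the background of 5.44 to 5.54. The sex of the mice in those pools was not given, and its part in these values was not tested. Leaving out both replicate 1 arrays, Olfr123 differed by -1.44, Olfr398 by -2.03, Olfr796 by -1.99 and Pcdh10 by 1.61. Olfr578, a class I receptor, read 6.43 on octanone replicate 4 and 6.85 on vehicle replicate 4 against 9.54 to 10.33 on the others.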

How the data were processed

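Clariom S arrays (Affymetrix) were made from 50 to 100 ng of total RNA a sample, per the labels. The software named in the submitters' processing notes is Affymetrix Expression Console. The deposited table holds 28846 probe sets with values from 2.13 to 18.99, read as the authors' normalised log2 signals; the log base and algorithm are not given in the sources used here. Left out were 6640 controls and 2634 probe sets naming no gene. The other 19572 stand for 19505 symbols, 55 of them with several probe sets, tested singly and described by the brightest. The number of arrays, 4 a group, limits the precision.

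The 8 arrays were fitted with limma 3.58.1 in R 4.3.3 (lmFit, eBayes) on the 2 group means, with 6 residual and 4.01 prior degrees of freedom and no block. The fit was tested on simulated data with 200 changed genes, where 10 unchanged genes were called. Lists are given by counts and medians, with no test. Whether replicate numbers pair the exposures was checked: residuals of same-numbered arrays correlated at 0.34, -0.06, 0.35 and 0.52 across genes, not all over 0.1. Those of unlike-numbered arrays correlated at -0.56 to 0.34. The check did not settle the pairing, so the replicate number enters only an alternative. Named are S100a5, Omp, Pcdh10 and Fos, the 10 lower and 6 higher receptors and the 6 higher and 6 lower other genes (mean above the 25th percentile) of smallest p, the 6 genes of largest residual SD, and up to 4 members of each list. Others were named after their values were seen: the remaining genes over 2-fold, the neighbouring receptors and receptors of a shared family. Members and lists were chosen with earlier results of these data known. Alternatives were other normalisations, filters, variance priors, blocks and thresholds, array weights, all 16 arrays, and leaving out arrays. Figures were drawn with matplotlib 3.10.9.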

Additional observations from a re-analysis of the deposited data

Results flagged for a closer look

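In groups of 4 arrays, an array was singled out where its gap to the nearest of the others, divided by the whole range, was above Dixon's 95% critical value, and 32 of 252 groups held one; chance gives about 1 in 20. That rate is no yardstick here, since all groups share the same 8 arrays and 7 of the 32 come from genes named for their large spread. In 20 the array was replicate 4, of vehicle in 16 and of 2-octanone in 4, and in 7 it was replicate 1.

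Vehicle replicate 4 stood below its group in S100a5 (13.11), Omp (17.76), Olfr796 (9.51), Olfr398 (8.78) and Taar7a (9.01), and in the means of the odorant receptors (8.69), transduction genes (14.46), mature neuron genes (15.68) and ventral zone genes (10.72). It stood above its group in Sox10 (6.38) and Klf1 (7.48) and in the means of the Trpm5 microvillar genes (8.82), antigen presentation genes (10.98), erythroid genes (10.33), guanylyl cyclase D neuron genes (8.62) and chemokine and cytokine genes (8.54). Octanone replicate 4 stood below its group in S100a5 (13.55), Olfr902 (8.12), Olfr578 (6.43) and Taar7a (8.61).

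The replicate 1 arrays of both exposures stood below their groups in the Y-linked genes Eif2s3y (5.31 after 2-octanone, 3.48 after vehicle), Uty (3.38 and 3.99) and Kdm5d (3.47 and 3.12), and vehicle replicate 1 in Camk2n1 (8.51). Single arrays stood apart in Olfr378 (octanone replicate 3 high at 8.54, vehicle replicate 2 low at 8.40), Rpa3 (vehicle replicate 3 low at 10.42), Cxcl9 (octanone replicate 3 low at 4.74) and Atp6v1b1 (octanone replicate 2 high at 8.34).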

How the results depend on the processing

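With 0 genes called in the fit described, limma called 1 gene, Olfr123, with all 16 arrays in the fit and with array weights, and 2, Olfr796 and Olfr398, without both replicate 4 arrays. Leaving out 1 array at a time called 0 to 3 genes, all receptors and all lower; the 3 were Olfr123, Olfr796 and Olfr398, without vehicle replicate 4. With the replicate number as a block in limma, the random block called 1 (Olfr123, adjusted p = 0.0405) and the fixed block 0 (Olfr123 at 0.171). Whether a block is apt is not settled, since the numbers are not known to pair the exposures. Same-numbered pools did share traits: both replicate 1 pools were low in Y-linked RNA and both replicate 4 pools in S100a5.

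At an unadjusted p under 0.05 there were 467 genes, but 787 and 768 with the fixed and random replicate block, 737 with array weights, 760 without both replicate 4 arrays, 122 of the brighter probe sets alone, where fewer genes were tested, and 374 to 800 without 1 array, the highest without vehicle replicate 4. Receptors lower at that p were 26, but 72 and 40 with the fixed and random block, 58 without both replicate 4 arrays and 18 to 94 without 1 array; receptors higher were 15, but 55 and 24 with the blocks, 7 among the brighter probe sets, 31 without both replicate 4 arrays and 7 to 44 without 1 array. Genes over 2-fold lower were 15, but 9 with array weights, 27 without both replicate 1 arrays and 12 to 22 without 1 array. Genes over 2-fold higher were 3, but 5 after quantile normalisation, 15 with unnamed probe sets, 10 without both replicate 1 arrays and 3 to 10 without 1 array. Receptors over 2-fold lower were 11, but 6 with array weights, 7 without both replicate 4 arrays and 5 to 18 without 1 array; receptors over 2-fold higher were 2, but 0 with array weights, 0 without both replicate 4 arrays and 0 to 6 without 1 array. The cause of these shifts was not tested.

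Of 91 named genes, 8 turned sign in some setting. Omp read -0.025 after quantile normalisation and -0.015 without both replicate 4 arrays, and without both replicate 1 arrays Fos read 0.10 and Olfr578 -0.10. Without 1 array, S100a5 ran from -0.39 to 0.78, Omp from -0.049 to 0.15, Fos from -0.89 to 0.35, Eif2s3y from -1.21 to 2.47, Uty from -1.58 to 2.03, Kdm5d from -0.96 to 1.35, Olfr578 from -0.75 to 0.95 and Ms4a6c from -0.45 to 0.14. Probe sets near the background of 5.44 to 5.54 have signals that limit what their differences show. Among them are Neurog1, Cxcl9, Gzmb, Vmn2r45, Stpg3, Fhl4, Ttr, Speer4a, Camk4, Hspb1 and Cxcl1.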
